A study of Mus musculus with 6 samples.

Results

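The hepatic extracellular matrix and the stellate cells that make much of it were followed through 36 genes: collagens, their crosslinking enzymes, matrix proteases and inhibitors, proteoglycans, glycoproteins and markers of stellate cells. They were listed by name, and those with at least 10 summed estimated counts over the 6 libraries were kept. All 36 met that minimum, out of 35082 genes with at least 1 transcript in the files. Livers came from male mice on a high-fat diet (HFD), begun at 8 weeks of age and kept up for 20 weeks. The 3 control animals had the genotype G3BP1f/f, floxed alleles with no Cre named and wild-type in their titles, and the 3 others had the genotype Alb-cre; G3BP1f/f, in which Cre is expressed from the albumin promoter and so in hepatocytes. Both groups thus carried the floxed alleles and ate the same diet, and no chow-fed or Cre-only animals were analysed here. Stellate cells, portal fibroblasts, endothelium and macrophages are not targeted by that promoter. RNA came from whole liver, where fewer cells of a type and less RNA per cell cannot be told apart.

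Libraries held 20899135 to 21750007 estimated counts. The targeted gene, G3bp1, measured 44.1, 34.8 and 40.5 CPM (estimated counts scaled to library size with TMM factors) in controls 1 to 3 and 44.0, 30.0 and 31.5 CPM in the others (log2 difference -0.18, edgeR adjusted p = 0.91), so the second group is called LKO-labelled, after its label of liver knockout. Whether a count over the whole transcript reports the loss of a floxed exon was not tested. LKO-labelled libraries 2 and 3 stood apart from the others. They had counts on 36.3% and 37.8% of transcripts against 30.2% to 31.2% in the others, and mitochondrial shares of 9.16% and 10.1% against 7.20% to 7.62%. The fragment lengths implied by their effective transcript lengths were also the longest, 258.6 and 262.3 bases against 241.9 to 255.0. Of 18 further stellate markers outside the 36 genes, none was at 0 in any library and 17 passed the filter on low counts, so stellate cell RNA was present throughout. Of the mesothelial markers, Upk3b and Upk1b were at 0 in at least 1 library, and Msln, Upk1b, Wt1 and Lrrn4 had under 10 counts in every library.

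Stellate cells lie between the sinusoidal endothelium and the hepatocytes and store vitamin A as retinyl esters made by LRAT. On injury they can turn into contractile myofibroblasts, which express smooth muscle actin (Acta2) and lay down fibrillar collagen. TGF-beta is a central signal for that change, PDGF receptor beta drives stellate cell growth, and the balance between metalloproteinases and TIMP inhibitors sets how much matrix is removed again.

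None of the matrix and stellate cell genes passed the test between the groups. Of the 36, 33 passed the filter on low counts, and Lox, Mmp13 and Timp1 did not. Among the 33, edgeR's quasi-likelihood test called 0 after Benjamini-Hochberg adjustment over all 12497 genes tested, of which it called 0%. Their smallest adjusted p was 0.845. DESeq2 called 0 of them, against 0.0931% of all genes and 0.0543% in the higher direction, and limma voom called 0 of them and 0 genes in all. At an unadjusted p under 0.05 the members numbered 0, against 4.55% of all genes tested. Their log2 differences, LKO-labelled minus control, ran from -0.78 (Acta2) to 0.75 (Col5a1) with a median of -0.05, beside a median of 0.01 over all genes. Of the 33, 14 lay above 0 and 19 below, where 51.6% of all genes tested lay above 0 and 48.4% below.

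These small differences came with wide intervals. The 95% interval of the log2 difference held 0 for 33 of the 33, and for 28 of them it reached past a 2-fold change in at least 1 direction. The 5 genes whose interval stayed within a 2-fold change either way were Fn1, Lum, Col4a1, Col4a2 and Timp2. Groups were free of overlap for 1 of the 33 genes, Col5a1 which was higher in the LKO-labelled group (3.03%, against 4.79% of all genes tested in that direction and 9.34% in either). Scaled to library totals alone, 23 of the 33 lay above 0 with a median of 0.17, while the median of all genes was 0.27. On the scale of log2(TPM + 1) 27 lay above 0 with a median of 0.08, against 0.22 over all genes. With limma voom and sample weights 25 lay below 0 with a median of -0.32, against 0.02 over all genes. Those weights ran from 0.40 for LKO-labelled library 1 to 2.75 for LKO-labelled library 2.

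**Figure D1:**
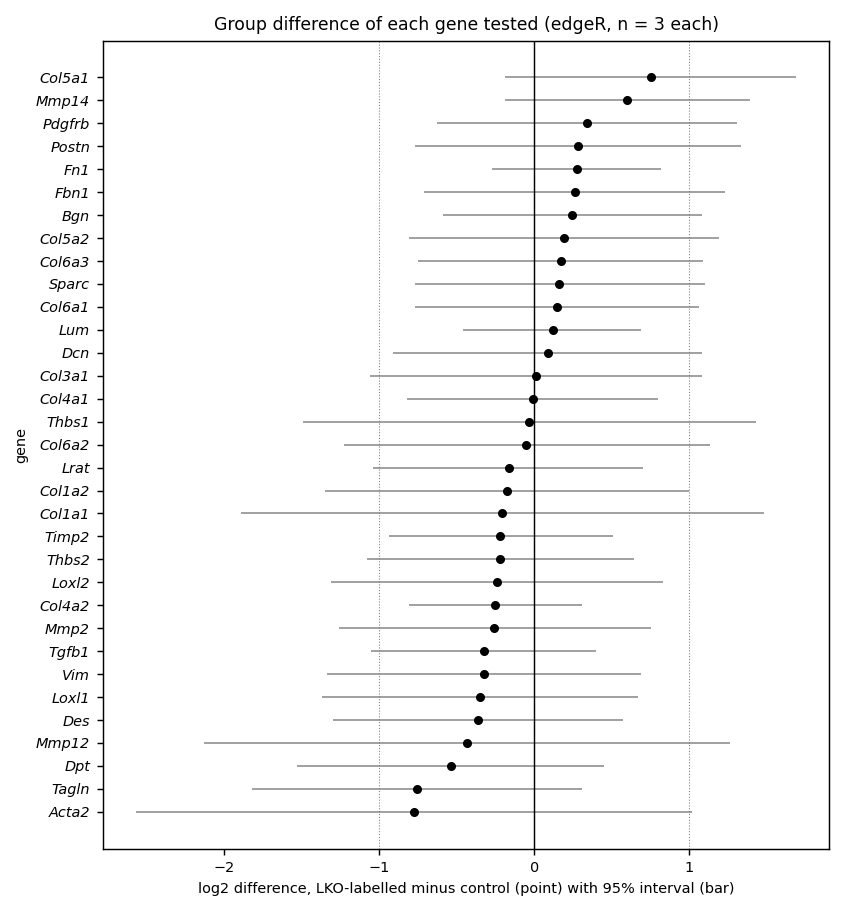
Log2 difference of each of the 33 genes tested, LKO-labelled minus control, with its 95% interval from edgeR; dotted lines mark a 2-fold change. Each interval holds 0, from Acta2 at -0.78 to Col5a1 at 0.75.

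Variation within each group was larger than the difference between them, and it ran the same way for much of the list. Libraries of 1 group also lay apart beyond the list. On the first principal component of the 500 most variable genes (47.5% of variance) controls 1 to 3 lay at -14.7, 17.4 and -12. The LKO-labelled libraries lay at -41, 24.6 and 25.7 on it. How far the list follows that component was not tested. The 33 genes were most often highest in control 3 (13 genes, 39.4%, where that library was highest for 16.5% of all genes tested) and in LKO-labelled library 1 (11 genes, 33.3%, against 12.4%). They were most often lowest in control 2 (15 genes, 45.5%, against 18.3%) and in LKO-labelled library 2 (12 genes, 36.4%, against 13.5%). Control 1 was the highest for 6 (18.2%, against 20.3%). Control 2 was the highest for none of the 33, and LKO-labelled library 1 the lowest for none. The median deviation from each gene's mean over the libraries was 0.06, -0.53 and 0.52 log2 units in controls 1 to 3 and 0.48, -0.32 and -0.14 in the LKO-labelled libraries. The ratio of the highest to the lowest library ran from 1.52 for Lum to 26.5 for Acta2, with a median of 2.90, and was at least 2 for 28 of the 33 genes. The median log2 difference of the list therefore depended on single libraries. It was -0.40 without LKO-labelled library 1, -0.37 without control 2, 0.32 without control 3 and 0.14 without LKO-labelled library 2. With 5 libraries fewer values can overlap, and the members free of overlap are given beside the share of all genes tested in the same fit. They were 7 of 33 without LKO-labelled library 1 (21.2%, against 36%), 6 of 33 without control 3 (18.2%, against 17.3%) and 5 of 36 without control 2 (13.9%, against 17.7%). In these fits 0 members were called, and over all genes 3 were called without LKO-labelled library 1.

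**Figure D2:**
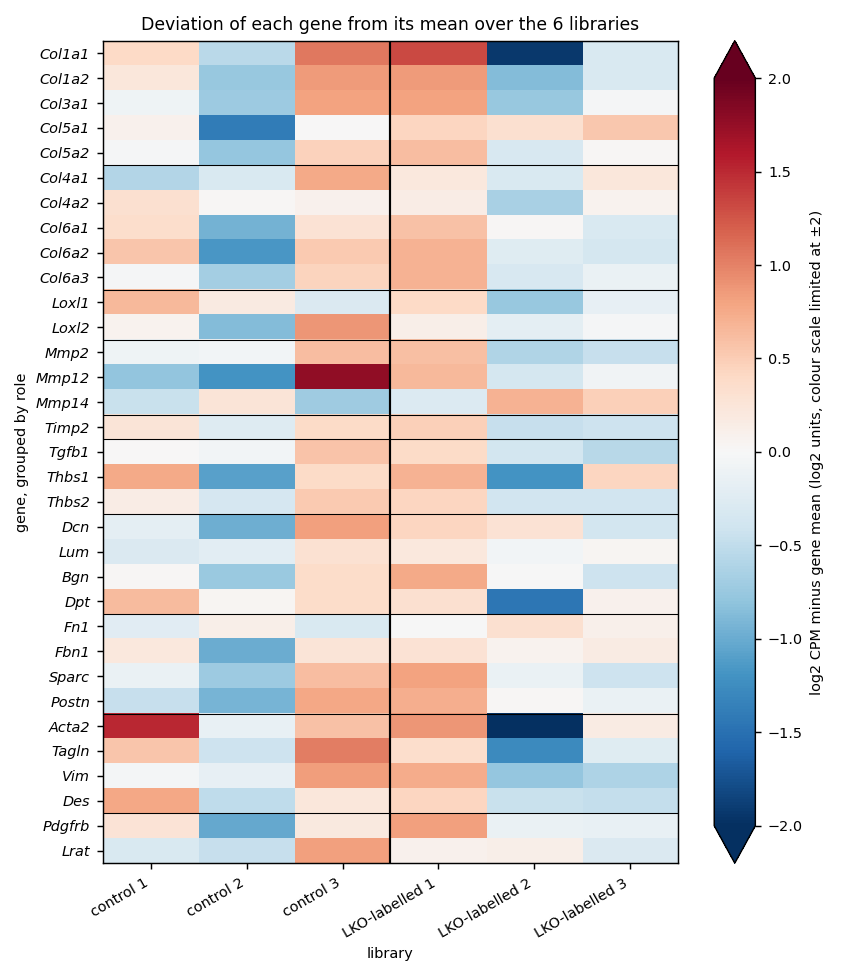
Deviation of each tested gene (rows, grouped by role) from its own mean over the 6 libraries (columns), in log2 units; red is above and blue below the mean. The red columns of control 3 and LKO-labelled library 1 and the blue ones of control 2 and LKO-labelled library 2 have median deviations of 0.52, 0.48, -0.53 and -0.32.

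**Figure D3:**
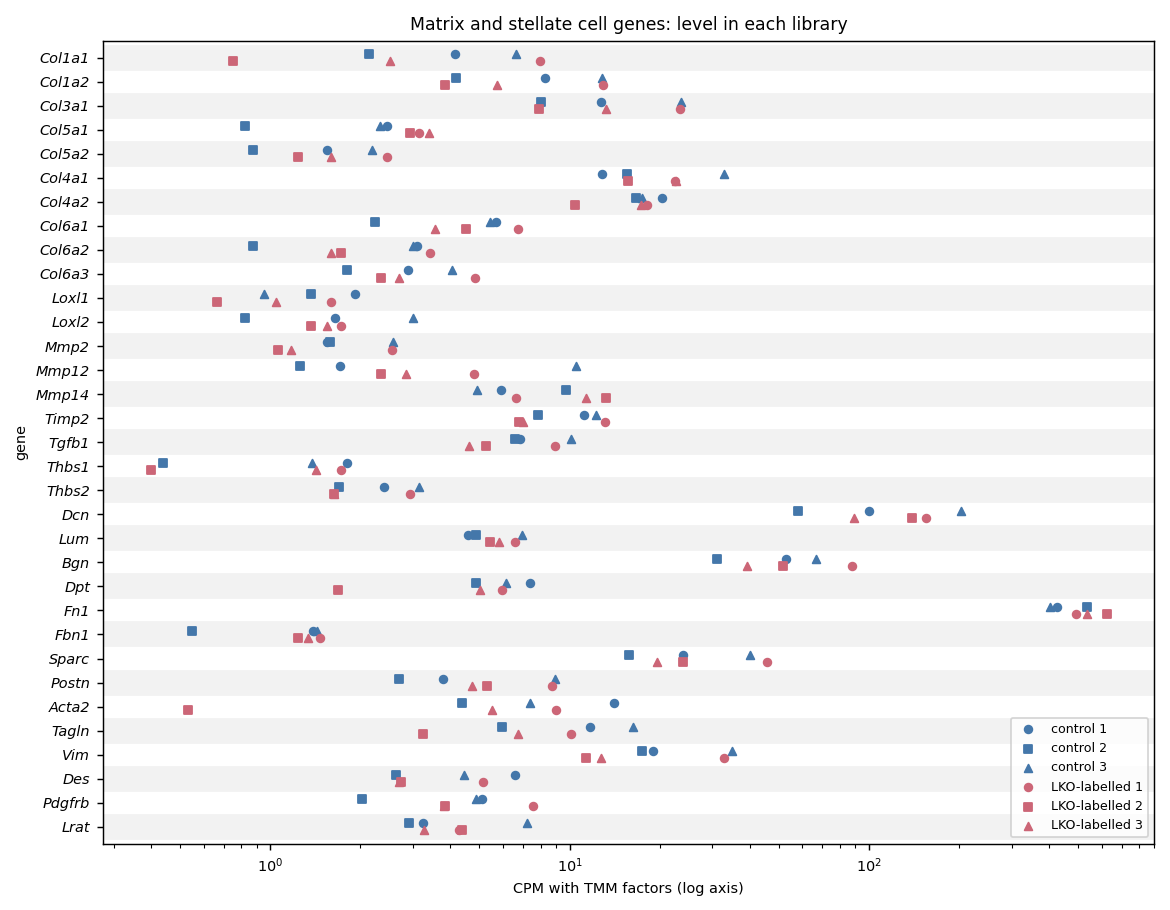
CPM of the 33 tested genes in each of the 6 libraries, on a log axis; blue symbols are controls and red symbols LKO-labelled libraries. The groups are intermixed for 32 of the 33 genes, and Col5a1 is the exception.

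Levels of different genes were compared in the deposited TPM, which are scaled to transcript length. Fibronectin (Fn1) was the most abundant member at 80.5 ± 8.50 TPM in controls and 122 ± 16.3 TPM in the LKO-labelled libraries (SD, n = 3 each). Decorin (Dcn) followed at 56.5 ± 40.8 and 72.8 ± 15.2 TPM, and biglycan (Bgn) at 16.0 ± 7.11 and 23.8 ± 7.42 TPM. Type I collagen was low in these livers, with Col1a1 at 0.53 ± 0.33 and 0.54 ± 0.50 TPM, and Lox was the least abundant at 0.063 ± 0.060 and 0.087 ± 0.070 TPM. Fn1 alone of these 5 genes had groups without overlap in TPM, where 20.1% of all genes tested had none in either direction. The median log2(TPM + 1) difference over all genes was 0.22. In CPM the groups of Fn1 overlapped.

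Fibrillar collagens form the load-bearing fibers of scar tissue. Col1a1 (ENSMUSG00000001506, chromosome 11), the main chain of type I collagen, measured 4.15, 2.14 and 6.62 CPM in controls 1 to 3 and 7.94, 0.75 and 2.52 CPM in the LKO-labelled libraries. The highest and the lowest library both lay in the LKO-labelled group, and the control values fell between them. The log2 difference was -0.21 (SE 0.74, edgeR adjusted p = 0.97), and without LKO-labelled library 1 it was -1.40. Col3a1, the type III collagen chain, measured 12.7, 8.05 and 23.5 CPM in controls and 23.5, 7.92 and 13.2 CPM in the LKO-labelled libraries. Its group means were nearly equal, with a log2 difference of 0.01 (SE 0.47). Col1a2, the partner chain of Col1a1, had a log2 difference of -0.18 and the same highest and lowest library as Col1a1.

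Type V collagen, a minor component that regulates fiber diameter, gave the only pair of groups without overlap among the 33 genes. Col5a1 measured 2.45, 0.82 and 2.33 CPM in controls and 3.15, 2.92 and 3.40 CPM in the LKO-labelled libraries. All 3 LKO-labelled libraries lay above all 3 controls, and control 2 stood far below the rest. The log2 difference was 0.75 (SE 0.41, edgeR adjusted p = 0.845), and without control 2 it was 0.40. Its partner chain Col5a2 measured 1.54, 0.88 and 2.19 CPM in controls and 2.46, 1.24 and 1.59 CPM in the LKO-labelled libraries, with a log2 difference of 0.19. Col5a2 thus overlapped between the groups where Col5a1 did not.

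Type IV collagen forms the network of basement membranes, and type VI forms beaded filaments around cells. Col4a1 and Col4a2 encode chains of 1 heterotrimer and lie head to head on chromosome 8. Col4a1 measured 12.9, 15.6 and 32.8 CPM in controls and 22.5, 15.7 and 22.8 CPM in the LKO-labelled libraries. Col4a2 measured 20.4, 16.7 and 17.4 CPM in controls and 18.1, 10.4 and 17.3 CPM in the LKO-labelled libraries. The chains did not keep step: control 3 was the highest library for Col4a1 and was the third highest for Col4a2. Per length, Col4a1 ran from 1.74 to 5.68 TPM over the 6 libraries and Col4a2 from 1.49 to 2.61 TPM. Their log2 differences were -0.01 (95% interval -0.82 to 0.80) and -0.25 (-0.81 to 0.31). Col6a1, Col6a2 and Col6a3, the chains of type VI collagen, had log2 differences of 0.15, -0.05 and 0.17. Col6a3 measured 2.88, 1.81 and 4.05 CPM in controls and 4.83, 2.35 and 2.68 CPM in the LKO-labelled libraries. All 3 type VI chains were lowest in control 2 and highest in LKO-labelled library 1.

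Lysyl oxidases crosslink collagen and elastin. Lox had 9, 0 and 14 estimated counts in controls and 20, 2 and 9 in the LKO-labelled libraries, too few to pass the filter. The 0 in control 2 allows up to 3 counts, or 0.164 CPM there, a limit that covers counting error only. Loxl1 measured 1.92, 1.37 and 0.95 CPM in controls and 1.60, 0.66 and 1.05 CPM in the LKO-labelled ones (log2 difference -0.35). Loxl2 measured 1.65, 0.82 and 3.00 CPM in controls and 1.73, 1.37 and 1.55 CPM in the LKO-labelled ones (log2 difference -0.24). Both overlapped between the groups, and Loxl2 spread more among controls (SD 1.10) than among the LKO-labelled libraries (SD 0.18).

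Mmp12, Mmp13 and Timp1 had the most uneven counts of the proteases and inhibitors. Mmp12, the macrophage elastase, had 31.7, 23.1 and 220 estimated counts in controls 1 to 3 and 111, 53.1 and 68.3 in the LKO-labelled libraries. Mmp13, an interstitial collagenase, had 4, 2 and 40 counts and 34, 3 and 6 counts in the same order. Timp1, an inhibitor of metalloproteinases that is raised in fibrosis, had 3, 2 and 42 counts and 24, 3 and 8 counts. In all 3 genes control 3 was the highest library, LKO-labelled library 1 the second and control 2 the lowest. Mmp12 had a log2 difference of -0.44 (SE 0.74), and without control 3 it was 1.17. Mmp13 and Timp1 did not pass the filter on low counts, and only 2 libraries of each held more than 8 counts. In control 3 most Timp1 counts lay on a transcript other than the leading one.

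The 250 bases before an annotated start of these 3 genes are shown because the genes were high in the same libraries (RefSeq, GRCm38.p6, plus strand; chr9:7347124-7347373 for Mmp12, chr9:7272264-7272513 for Mmp13 and chrX:20869916-20870165 for Timp1). Mmp12 has a further start, given below, and the window shown is the one that held a motif. Capitals mark 2 motifs searched on both strands, TGANTCA, the core bound by AP-1 factors, and TATAAA, the letters of a core promoter element, and the matches do not overlap.
Mmp12: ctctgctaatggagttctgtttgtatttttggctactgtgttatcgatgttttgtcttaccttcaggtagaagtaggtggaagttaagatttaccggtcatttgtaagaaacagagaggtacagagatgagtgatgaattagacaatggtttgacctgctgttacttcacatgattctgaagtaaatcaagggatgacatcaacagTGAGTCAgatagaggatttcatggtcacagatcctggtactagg
Mmp13: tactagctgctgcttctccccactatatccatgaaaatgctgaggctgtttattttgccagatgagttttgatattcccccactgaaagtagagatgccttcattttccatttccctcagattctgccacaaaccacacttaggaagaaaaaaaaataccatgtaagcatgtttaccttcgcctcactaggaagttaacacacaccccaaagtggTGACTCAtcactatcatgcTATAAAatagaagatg
Timp1: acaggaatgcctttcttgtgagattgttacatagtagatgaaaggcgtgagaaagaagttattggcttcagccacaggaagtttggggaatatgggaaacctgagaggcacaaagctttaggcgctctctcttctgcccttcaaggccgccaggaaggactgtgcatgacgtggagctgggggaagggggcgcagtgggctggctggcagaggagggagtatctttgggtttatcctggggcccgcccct
Mmp12 and Mmp13 are close neighbours on chromosome 9, and the window shown for each held 1 TGANTCA, beginning 44 and 35 bases before that start. Mmp13 also held TATAAA 16 bases before the start, and the Timp1 window held neither string of letters. The RefSeq table lists a further Mmp12 start, whose window (chr9:7344147-7344396) held neither. That window reaches the GENCODE start of the gene at 7344381, and the Mmp12 window shown lies within the gene. Of 32851 windows of the same length over all genes in the table, 6.75% held TGANTCA and 12.4% held TATAAA. The table covers 24 of the 36 genes in 27 windows, of which 3 held TGANTCA and 5 held TATAAA. Col6a1 was the only other member with TGANTCA, and Col3a1, Vim, Postn and Thbs2 also held TATAAA. A link between these letters and the levels was not tested.

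Markers of resident and blood-borne immune cells were highest in control 3 too. The summed level of 10 lipid-associated macrophage markers, none at 0 in any library, was 341, 402 and 501 CPM in controls and 452, 289 and 304 CPM in the LKO-labelled libraries. Control 3 and LKO-labelled library 1 were the highest for this list, as they were for Mmp12, Mmp13 and Timp1. Its 10 genes had log2 differences below 0 with a median of -0.57, and 0 of 10 passed the test. The summed level of 14 Kupffer cell and macrophage markers, none of them at 0 in any library, was 284 to 925 CPM in controls, highest in control 3, and 292 to 412 CPM in the LKO-labelled libraries, highest in LKO-labelled library 1. Control 2, the lowest library for Mmp12, had 442 CPM against 284 CPM in control 1. With TMM factors the 14 had log2 differences below 0 with a median of -0.61, and 0 of 14 passed the test. Control 3 was the highest library for 14 of the 14, where it was highest for 16.5% of all genes tested. The sums of the LKO-labelled libraries lay between those of controls 1 and 2. For 8 neutrophil markers the sum was 5.10 to 20.1 CPM in controls, also highest in control 3, and 4.60 to 9.90 CPM in the LKO-labelled libraries, with Ly6g, Ngp and Camp at 0 in at least 1 library. Control 3 was not highest for immune markers alone. The sums of 15 sinusoidal endothelial and 12 hepatocyte markers were also highest there, at 428 and 132762 CPM. The 18 further stellate markers had their highest sums in LKO-labelled library 1 (181 CPM) and control 3 (169 CPM). Portal fibroblast, smooth muscle, mesothelial and red blood cell sums were highest in control 1, and the cholangiocyte sum in LKO-labelled library 1. The part of these cell types in the levels of Mmp12, Mmp13 and Timp1 was not tested.

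Mmp14, like Fn1, was lowest in control 3 and highest in LKO-labelled library 2. This membrane-bound protease, which activates the gelatinase encoded by Mmp2, measured 5.91, 9.75 and 4.91 CPM in controls and 6.65, 13.2 and 11.3 CPM in the LKO-labelled libraries. The groups overlapped, since control 2 exceeded LKO-labelled library 1, and control 3, the lowest here, was the library in which 13 of the 33 genes were highest. The log2 difference was 0.60 (SE 0.35, edgeR adjusted p = 0.845) and 0.39 to 0.94 with 1 library left out, the lowest value without LKO-labelled library 2 and the highest without control 2. Mmp2 itself had a log2 difference of -0.26. Timp2, the inhibitor that works with MMP14 in that activation, measured 11.2, 7.83 and 12.2 CPM in controls and 13.1, 6.77 and 7.0 CPM in the LKO-labelled libraries. Its log2 difference was -0.22 (95% interval -0.94 to 0.51).

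Tgfb1 and the thrombospondins lay slightly below 0 with TMM factors and above 0 on log2(TPM + 1), at 0.08, 0.04 and 0.02 for Tgfb1, Thbs1 and Thbs2, and 0 of 3 passed the test. Scaled to library totals, Thbs1 and Thbs2 were at 0.21 and 0.01. Tgfb1, which encodes the TGF-beta form best known in fibrosis, measured 6.82, 6.57 and 10.1 CPM in controls and 8.93, 5.27 and 4.61 CPM in the LKO-labelled libraries. LKO-labelled libraries 2 and 3 lay below the controls and LKO-labelled library 1 lay among them. The log2 difference was -0.32 (SE 0.32, edgeR adjusted p = 0.88). Thbs1, a thrombospondin that can release TGF-beta from its latent complex, measured 1.81, 0.44 and 1.38 CPM in controls and 1.73, 0.40 and 1.43 CPM in the LKO-labelled libraries. Its lowest values were those of library 2 in each group, and its log2 difference was -0.03. Thbs2, a related protein of the matrix, measured 2.40, 1.70 and 3.14 CPM in controls and 2.93, 1.64 and 1.64 CPM in the LKO-labelled ones (log2 difference -0.22). The groups overlapped for all 3 genes.

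Small leucine-rich proteoglycans bind collagen and space its fibrils. Dcn measured 100.1, 58.0 and 204 CPM in controls and 155, 140 and 88.9 CPM in the LKO-labelled libraries, and all LKO-labelled values lay within the control range (log2 difference 0.09, SE 0.44). Bgn measured 52.8, 31.0 and 66.8 CPM in controls and 87.6, 51.8 and 39.0 CPM in the LKO-labelled ones (log2 difference 0.24). Lum, lumican, was the steadiest gene of the 33, with 4.58 to 6.96 CPM in controls and 5.44 to 6.56 CPM in the LKO-labelled libraries. Dpt, dermatopontin, a small protein that binds decorin, measured 7.40, 4.87 and 6.15 CPM in controls and 5.96, 1.68 and 5.03 CPM in the LKO-labelled libraries. Its log2 difference was -0.54, and -0.16 without LKO-labelled library 2.

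Matrix glycoproteins all had log2 differences above 0, from 0.16 to 0.28, and 0 of 4 passed the test. With sample weights Sparc was at -0.18, and without control 2 Fbn1 was at -0.06, Sparc at -0.10 and Postn at -0.03. Fn1 (ENSMUSG00000026193, chromosome 1, 71585520 to 71653200, minus strand, GRCm38), which hepatocytes secrete as plasma fibronectin and stellate cells deposit in the matrix, measured 426, 537 and 402 CPM in controls and 492, 623 and 535 CPM in the LKO-labelled libraries. Control 2 lay above LKO-labelled libraries 1 and 3, and the log2 difference was 0.27 (95% interval -0.27 to 0.82). Fbn1, fibrillin, measured 1.38, 0.55 and 1.43 CPM in controls and 1.47, 1.24 and 1.34 CPM in the LKO-labelled libraries. Here the LKO-labelled values were close together and control 2 alone was low. Sparc, a collagen-binding protein, ran from 15.8 to 40.2 CPM in controls and from 19.6 to 45.8 CPM in the LKO-labelled libraries. Postn, periostin, ran from 2.68 to 8.96 and from 4.74 to 8.72 CPM.

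The estimated counts of Fn1 were divided differently over its transcripts in LKO-labelled libraries 2 and 3. A retained-intron model that covers the 3' part of the gene (chromosome 1, 71585526 to 71609567) took 95.8%, 90.7% and 94.7% of Fn1 counts in controls 1 to 3 and 97.3%, 68.6% and 61.8% in the LKO-labelled libraries. The 7 protein-coding models that span the gene took 3.7%, 9.0% and 5.0% in controls and 2.2%, 30.4% and 37.3% in the LKO-labelled libraries. As deposited TPM these 7 models summed to 1.29, 4.22 and 2.08 in controls and 1.11, 22.8 and 25.2 in the LKO-labelled libraries. LKO-labelled library 1 thus lay with the controls, and control 2 was the highest of those 4. In Sparc (chromosome 11) the longer of the 2 coding transcripts with counts took 1.4%, 9.6% and 7.3% of counts in controls and 2.7%, 33.6% and 37.9% in the LKO-labelled libraries, again with LKO-labelled libraries 2 and 3 highest. LKO-labelled libraries 2 and 3 are those with counts on more transcripts and higher mitochondrial shares, given above. They also had the longest implied fragments, 258.6 and 262.3 bases, and control 2 had the next longest, 255.0 bases. The share of the 7 Fn1 models followed the same order in these libraries. That order did not hold throughout, since control 1 had the shortest fragments, 241.9 bases, and LKO-labelled library 1 the lowest share. The part of these library differences in the division of Fn1 and Sparc counts was not tested. The models overlap in the genome, and the division of counts among them is an estimate made by the quantification.

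**Figure D4:**
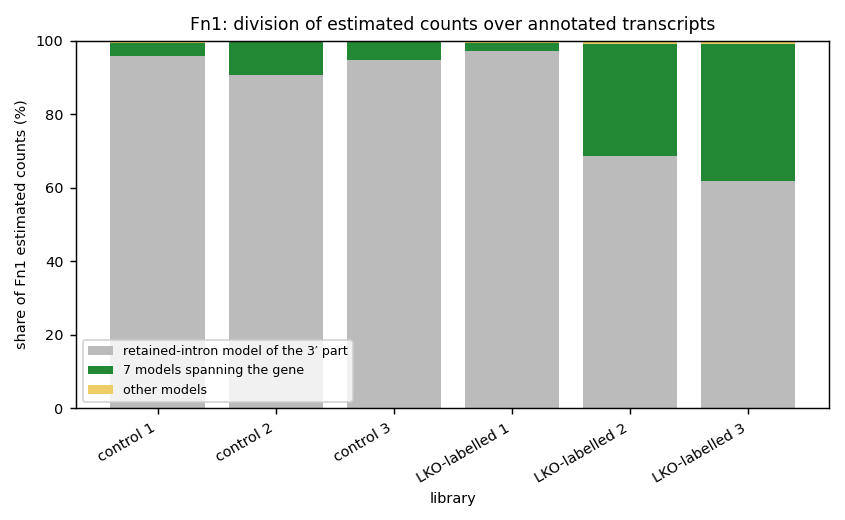
Share of Fn1 estimated counts (percent) on the model of the 3' part (grey), on the 7 models that span the gene (green) and on other models (yellow), by library. The green share is 2.2% to 9.0% in the controls and LKO-labelled library 1 and 30.4% and 37.3% in LKO-labelled libraries 2 and 3.

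Genes of the contractile and intermediate filament cytoskeleton had the lowest median log2 difference of the roles, -0.56, with members from -0.78 to -0.33, and 0 of 4 passed the test. On log2(TPM + 1) Des was at 0, and without control 3 Vim was at 0.06. Acta2 (ENSMUSG00000035783, chromosome 19), the smooth muscle actin of myofibroblasts and vessel walls, measured 14.1, 4.38 and 7.38 CPM in controls and 9.02, 0.53 and 5.49 CPM in the LKO-labelled libraries. LKO-labelled library 2, with 12 counts, stood far below the rest, and the other LKO-labelled values lay within the control range. Its log2 difference was -0.78 (SE 0.79, edgeR adjusted p = 0.89), and it was -0.25 without LKO-labelled library 2, -0.23 without control 1 and -1.51 without LKO-labelled library 1. Tagln, transgelin, which binds actin, measured 11.7, 5.97 and 16.2 CPM in controls and 10.1, 3.23 and 6.71 CPM in the LKO-labelled libraries. It followed Acta2 in having its lowest value in LKO-labelled library 2, with a log2 difference of -0.76 (SE 0.47, edgeR adjusted p = 0.845) that was -0.39 without control 3, -0.42 without LKO-labelled library 2 and -1.19 without LKO-labelled library 1. Vim, vimentin, and Des, desmin, the intermediate filament proteins of mesenchymal and stellate cells, had log2 differences of -0.33 and -0.37.

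Smooth muscle markers outside the list, which share vessel walls with Acta2 and Tagln, were read beside them. Their summed level over 10 genes, none at 0 in any library, was 56.2 to 112 CPM in controls and 67.9 to 83.0 CPM in the LKO-labelled libraries. Of 8 tested, 3 lay above 0 and 5 below with a median of -0.24, and 0 passed. Tpm2, a tropomyosin of the contractile filament, measured 47.8, 25.2 and 39.2 CPM in controls and 23.8, 20.5 and 22.6 CPM in the LKO-labelled libraries (log2 difference -0.75, edgeR unadjusted p = 0.0167, adjusted p = 0.845). It was lower without overlap, the only 1 of the 8, where 9.34% of all genes tested had no overlap in either direction. Mylk, the myosin light chain kinase, had a log2 difference of 0.43. The part of vessel wall cells in the levels of Acta2 and Tagln was not tested.

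Receptor and retinoid genes of stellate cells lay on either side of 0. Pdgfrb measured 5.11, 2.03 and 4.86 CPM in controls and 7.55, 3.85 and 3.82 CPM in the LKO-labelled ones (log2 difference 0.34, SE 0.42). Lrat measured 3.25, 2.90 and 7.19 CPM in controls and 4.27, 4.38 and 3.27 CPM in the LKO-labelled ones (log2 difference -0.17, SE 0.38). Both overlapped between the groups, and control 2 was the lowest library for both. Among the 17 tested markers of stellate cells outside the list, 14 lay above 0 with a median of 0.21, and 0 passed the test. Of all genes tested 51.6% lay above 0, and the count for these markers was read with TMM factors only. Control 2 was the lowest library for 13 of the 17, where it was lowest for 18.3% of all genes tested. The summed level of the 18 markers overlapped between the groups. It was 125, 72.8 and 169 CPM in controls and 181, 148 and 108 CPM in the LKO-labelled libraries. Ngfr, a neurotrophin receptor of stellate cells, measured 1.17, 0.71 and 1.00 CPM in controls and 2.07, 1.42 and 1.43 CPM in the LKO-labelled libraries. It was the only 1 of the 17 without overlap, where 9.34% of all genes tested had none in either direction. Hgf, the hepatocyte growth factor made by these cells, had a log2 difference of 1.17 with a SE of 0.61, and LKO-labelled library 1 lay among the controls.

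**Figure D5:**
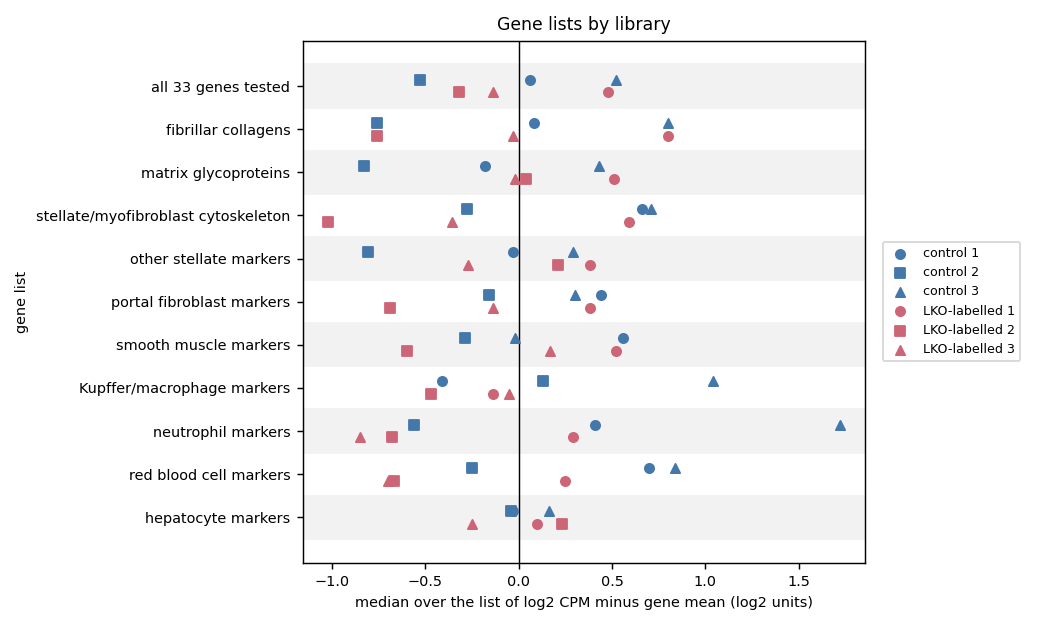
Median deviation of gene lists (rows) from the mean over the 6 libraries, in log2 units, for controls (blue) and LKO-labelled libraries (red). Over the 33 genes control 3 (0.52) and LKO-labelled library 1 (0.48) lie highest and control 2 (-0.53) lowest, while Kupffer and macrophage markers reach 1.04 in control 3 and lie from -0.47 to -0.05 in the LKO-labelled libraries.

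Other matrix genes gave the same picture of no call. In collagen folding and processing 14 of 20 tested genes were above 0, their median 0.11, and 0 passed. Control 2 was the lowest library for 9 of the 20, where it was lowest for 18.3% of all genes tested. Loxl3, another lysyl oxidase, measured 1.12, 0.49 and 1.05 CPM in controls and 3.37, 1.33 and 1.51 CPM in the LKO-labelled libraries (log2 difference 1.21, edgeR unadjusted p = 0.0396). It was the only 1 of the 20 without overlap. P4hb, the beta subunit of prolyl 4-hydroxylase, had a log2 difference of -0.32. Among collagens outside the list 8 of 9 lay above 0 with a median of 0.35, and 0 passed. Control 2 was the lowest library for 5 of the 9. Col5a3, a further type V chain, measured 20.8, 10.5 and 13.1 CPM in controls and 19.8, 38.4 and 31.3 CPM in the LKO-labelled ones (log2 difference 1.01, edgeR unadjusted p = 0.0135, adjusted p = 0.845). Col5a3 and Col5a1 both had log2 differences above 0, but LKO-labelled library 1 lay below control 1 for Col5a3. Col18a1, the source of endostatin, had a log2 difference of 0.36.

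Basement membrane genes lay above 0 in 10 of 14 with a median of 0.22, and 0 passed. Control 2 was the lowest library for 7 of the 14. Agrn, agrin, and Lamc1, a laminin chain, had log2 differences of 0.74 and 0.55, and Lamc1 was the only 1 of the 14 without overlap. Other matrix glycoproteins and proteoglycans lay below 0 in 12 of 20 with a median of -0.10, and 0 passed. Fbln1, fibulin, and Fmod, fibromodulin, had log2 differences of -0.97 and -0.96. In the TGF-beta pathway 15 of 22 lay above 0 with a median of 0.14, and 0 passed. Ski, a repressor of SMAD proteins, and Itgb5, an integrin chain, had log2 differences of 0.34 and 0.27. Both were among the 3 of 22 genes without overlap. Other matrix proteases and inhibitors lay above 0 in 7 of 12 with a median of 0.02, and 0 passed. Adamts1, which cleaves proteoglycans, and Adamts9 had log2 differences of 0.79 and 1.03, and Adamts1 was the only 1 of the 12 without overlap. Matrix receptors lay above 0 in 8 of 14 with a median of 0.13, and 0 passed. Dag1, dystroglycan, a laminin receptor, measured 24.4, 24.1 and 20.5 CPM in controls and 28.2, 38.6 and 41.2 CPM in the LKO-labelled ones (log2 difference 0.65, edgeR unadjusted p = 0.0134, adjusted p = 0.845). Itga5, part of a fibronectin receptor, had a log2 difference of 0.48.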

How the data were processed

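Bulk oligo(dT)-selected RNA sequencing of liver from 6 mice, 3 per group, was deposited as 1 transcript table per library, laid out as Salmon writes it according to the column names. Each table gives the estimated counts and the TPM that the authors deposited for 115221 transcripts. The estimated counts are not scaled to depth, and the TPM are scaled to effective length. Tools named without roles were RSEM 1.2.8, DESeq and Bowtie2 2.2.5, with GRCm38 as build, per the submitters' processing notes. Quantifier options: not given in the sources used here. LKO-labelled library 1 has an implied fragment length of 250.0 bases, and the other libraries run from 241.9 to 262.3. Its effective lengths of short transcripts also differ, which bears on TPM.

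Transcripts were matched without version to GENCODE M21 on GRCm38 (113664 matched, 1557 left out), and their counts were summed per gene and rounded. Strand use is not stated, so overlapping genes such as Col4a1 and Col4a2 are uncertain where they overlap. The 12497 genes kept by filterByExpr received TMM factors and entered the quasi-likelihood test (edgeR 4.0.16, R 4.3.3). Tests were two-sided, adjusted by Benjamini-Hochberg over those genes and read at 0.05. A floor of 3 counts equals 0.126 to 0.164 CPM. SE is the standard error of the log2 difference. Alternatives used DESeq2 1.42.0 and limma 3.58.1. In counts simulated for this comparison over 12497 genes, edgeR called 6 of 100 genes changed by 1 log2 unit, 64 of 100 changed by 2 and 5 of 12297 unchanged ones. Each p-value sets a group difference against the spread between these samples, with variance estimates shared in part over all genes tested. It covers no variation beyond these samples.

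Members, lists and tests were chosen with earlier results of these data known. Values by library are given for up to 2 genes of smallest p per role, and for Col1a1, Col3a1, Acta2, Timp1, Tgfb1, Pdgfrb and Lrat. Col4a1, Lox, Mmp13, Thbs1 and Dcn were added after their values were seen. For each further matrix list and the other stellate markers the 2 genes of smallest p are named, and Tpm2 and Mylk were added later from the smooth muscle markers.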

Additional observations from a re-analysis of the deposited data

How the results depend on the processing

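The 11 planned settings and the 6 fits that each left out 1 library called 0 members. Over all genes DESeq2 called 12, and the fits with 1 library left out called 0 to 3. Members without overlap numbered 2 with library totals (6.06%, against 19.0% of all genes in that setting), 3 on log2(TPM + 1) (9.09%, against 20.1%), 2 with the length trend removed (6.06%, against 7.95%), and 1 to 7 with 1 library left out (2.78% to 21.2%, against 12.7% to 36%). Their median log2 difference ran from -0.40 to 0.32 with 1 library left out. The log2 differences below changed sign, and the cause was not tested. The values with DESeq2 size factors in edgeR were Col3a1 -0.01. The values with library totals were Col1a1 0.01, Col1a2 0.04, Col4a1 0.22, Col4a2 0.01, Col6a2 0.17, Timp2 0.02, Thbs1 0.21, Thbs2 0.01 and Lrat 0.05. The values with DESeq2 were Col3a1 -0.01. The values with limma voom were Col4a1 0.09, Col6a2 0.04 and Mmp12 0.12. The values with voom and sample weights were Col3a1 -0.55, Col5a2 -0.13, Col6a3 -0.19, Lum -0.04, Sparc -0.18 and Postn 0. The values on log2(TPM + 1) were Col1a2 0.10, Col4a1 0.34, Col4a2 0.05, Col6a2 0.08, Loxl2 0.02, Mmp2 0.14, Mmp12 0.04, Timp2 0.06, Tgfb1 0.08, Thbs1 0.04, Thbs2 0.02, Des 0 and Lrat 0.08. The values with the length trend removed were Col3a1 -0.18, Col6a3 -0.03 and Mmp12 0.11. The values with the replicate block were Col4a1 0.09, Col6a2 0.03 and Mmp12 0.15. With 1 library left out the values ran as follows: Col3a1 -0.49 to 0.52, Col6a2 -0.49 to 0.20, Thbs1 -0.43 to 0.38, Dcn -0.25 to 0.70, Col5a2 -0.13 to 0.55, Col6a1 -0.17 to 0.36 and Col6a3 -0.22 to 0.49. The next were Bgn -0.15 to 0.51, Fbn1 -0.06 to 0.48, Sparc -0.29 to 0.59, Postn -0.04 to 0.96, Col1a1 -1.40 to 0.28, Col1a2 -0.83 to 0.27 and Col4a1 -0.25 to 0.52. The next were Loxl2 -0.59 to 0.33, Mmp2 -0.77 to 0.03, Mmp12 -0.87 to 1.17, Thbs2 -0.56 to 0.02, Vim -0.99 to 0.06, Lrat -0.40 to 0.37 and Pdgfrb -0.07 to 0.55. The other members kept their sign in each of these fits with 1 library left out. 

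Replicate numbers are shared between the groups. Same-numbered libraries had deviation correlations of 0.20, 0.27 and -0.14, and other pairs ran from -0.43 to 0.34. With 3 libraries per group these correlations cannot tell whether same-numbered samples share more than a number. With the replicate block 0 genes and 0 members were called, the members' median was 0.01 and 1 member had groups without overlap. Control 2 correlated best with LKO-labelled library 3, not with its own number. Depth limits the members with few counts: Lox, Mmp13 and Timp1 did not pass the filter on low counts.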
